A study of Mus musculus with 6 samples.

Results

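Kinesins are motor proteins that use ATP to walk along microtubules or to take their ends apart. The genes described here are the protein-coding genes of the deposited expression table whose symbols are Kif followed by a number, or Kifc followed by a number, which gave 42 genes of 55471 gene IDs. They were grouped by their known roles into 14 mitotic kinesins, 17 transport kinesins and 11 others, among them ciliary motors. This grouping was made with earlier results of these data known, and it placed Kif2a, which acts at spindle poles and in neurites, among the others. Mitotic kinesins build the spindle, move chromosomes and complete cytokinesis, and many are made only as cells approach division. Transport kinesins carry vesicles, endosomes and organelles in dividing and resting cells alike, and haematopoietic stem cells are known for resting most of the time.

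RNA was measured in haematopoietic stem cells sorted from mice as Lin- Kit+ Sca1+ CD48- CD150+ cells, in 6 libraries of total RNA. All mice carried the ETV6-RUNX1 genotype, a fusion of 2 transcription factor genes found in childhood leukaemia, under doxycycline control. The uninduced group (n = 3) had no doxycycline, and the induced group (n = 3) had doxycycline in food for 2 weeks. Age, sex, strain and the promoter that drives the fusion are not given in the sources used here. No mice that received doxycycline without the fusion were analysed here, so induction and doxycycline cannot be told apart. The labels do not say whether the libraries of a group came from separate animals, and p-values measure only the spread between these libraries.

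TPM expresses each gene as its part of all transcripts in a library, after correction for length. The depth of each library is unknown, because TPM keeps none, so no counting interval or detection floor is given. A value listed as 0 can be a failed estimate as well as an undetected transcript. The limma test used log2(TPM + 1) of the 13470 genes whose average over the 6 libraries reached 1 TPM, and a gene was called at a Benjamini-Hochberg adjusted p under 0.05. The median gene had a log2 change of -0.35 on the deposited scale, where 1375 genes (10.2%) passed as lower and 174 (1.29%) as higher. Scaling by median of ratios, which sets the libraries to a common median, gave a median of 0.0032, with 418 genes (3.1%) lower and 388 (2.88%) higher. Nuclear protein-coding genes held 26.6% to 32.9% of the TPM in uninduced and 20.5% to 23.2% in induced libraries. Log2 changes are on the deposited scale unless called rescaled, and a rescaled change is relative to the median gene. Means are given with the SD over 3 libraries.

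Of the 9 genes listed for the sort and stem cell identity, all were tested, 2 were called lower and 3 higher (1 and 4 after rescaling), against 10.2% and 1.29% of all tested genes (3.1% and 2.88% after rescaling). Their summed level was 526 to 676 TPM in uninduced and 582 to 641 TPM in induced libraries. Of 10 lymphoid markers, 8 were listed at 0 in every library. Erythroid markers summed to 54.6 to 60.6 TPM in uninduced and 402 to 467 TPM in induced libraries, with 6 of 8 tested genes called higher on both scales. Car1 was listed at 0 in 5 of 6 libraries, and Epor was lower in every induced library without passing (log2 change -1.65, limma adjusted p 0.0638). Myeloid markers summed to 157 to 161 TPM in uninduced and 114 to 146 TPM in induced libraries, but of 5 tested the 1 called, Prtn3, was higher (log2 change 1.12, limma adjusted p 0.0114). Megakaryocyte markers summed to 102 to 138 TPM and 120 to 130 TPM, with calls both ways on the deposited scale. Of 6 tested, Ppbp (log2 change 3.22, limma adjusted p 0.00343) and Pf4 (1.13, 0.0253) were higher and Gp9 (-2.33, 0.0187) was lower, which did not pass after rescaling (-1.99, 0.0623). The part of other cell types in the kinesin results was not tested.

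Most tested mitotic kinesins were lower in induced stem cells, and 1 transport kinesin was called lower. Of 14 mitotic members 11 were tested, and 7 fell with induction, while 0 rose. Over all tested genes 10.2% were called lower and 1.29% higher. The median log2 change of the 11 was -1.90, against -0.35 over all tested genes, and after rescaling it was -1.63, against 0.0032. Log2 changes on this scale understate those of low genes: the median of the 11 was -3.26 with a pseudocount of 0.1 and -1.06 with one of 5, and 7 were called lower with either. Groups did not overlap, with induced libraries lower, for 10 of the 11, where 28.2% of all tested genes did so and 4.83% did so with induced libraries higher. After rescaling, 5 of the 11 were called lower and 0 higher, against 3.1% and 2.88% of all tested genes, and 9 did not overlap with induced libraries lower, against 14.3%. In bulk RNA, fewer dividing cells and less kinesin RNA per cell cannot be told apart.

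The chromokinesins bind chromosome arms and push them toward the spindle equator. Kif22 (ENSMUSG00000030677; GRCm38 chr7:127027729-127042471, minus strand) had the highest mean of the mitotic class, at 33.5, 27.0 and 19.8 TPM in the uninduced libraries and 0.696, 2.42 and 0.264 TPM in the induced libraries. Every induced library lay far below every uninduced library, with means of 26.8 ± 6.81 TPM and 1.13 ± 1.14 TPM, and induced replicate 2 was the highest of the induced libraries. Kif22 fell by 3.81 on the log2 scale (SE 0.41, limma adjusted p 0.00115), with -3.49 after rescaling (adjusted p 0.00337). Kif4 (chrX:100625737-100727214, plus strand), which also organises the central spindle at anaphase, was at 4.95, 8.90 and 5.91 TPM in the uninduced libraries. It was at 0.427, 0 and 0.371 TPM in the induced libraries, so it was close to the lower end of the scale in each of them. Kif4 fell by 2.57 on the log2 scale (SE 0.41, limma adjusted p 0.00534), with -2.34 after rescaling (adjusted p 0.0126).

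The kinesin-6 motors act in the spindle midzone and in cytokinesis, and their 3 members differed in size of change. Kif20a, which brings the chromosomal passenger complex to the midzone, was at 8.16, 9.71 and 6.14 TPM in uninduced libraries and at 0, 0.140 and 0.397 TPM in induced libraries. Kif20a fell by 2.93 (SE 0.39, limma adjusted p 0.00281), with -2.70 after rescaling (adjusted p 0.00473). Its gene overlaps Cdc23 on the opposite strand over 2327 of 8665 bases. The kit is stranded, but whether the counting used strand is not given in the sources used here, and Cdc23 was at 19.7 to 39.7 TPM in uninduced and 9.11 to 11.9 TPM in induced libraries.

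Kif23, the motor of the centralspindlin complex, was at 21.7, 22.004 and 13.1 TPM in uninduced libraries and at 5.38, 8.10 and 3.61 TPM in induced libraries. Its induced mean of 5.70 ± 2.26 TPM was the highest of the mitotic class, while Kif22 was higher in every uninduced library. Kif23 fell by 1.60 (SE 0.34, limma adjusted p 0.0170), but did not pass after rescaling (log2 change -1.22, adjusted p 0.0699). The call was also lost without uninduced replicate 1 or 2 or induced replicate 1 or 3, at adjusted p of 0.0591 to 0.0774. Kif20b, needed for the final cut between daughter cells, was at 7.61, 9.001 and 7.78 TPM in uninduced and 3.10, 3.82 and 4.63 TPM in induced libraries. The groups did not overlap, yet Kif20b did not pass (log2 change -0.92, SE 0.31, limma adjusted p 0.0803), and after rescaling its value was -0.58 (adjusted p 0.278).

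The kinesin-8 motors Kif18a and Kif18b walk to microtubule plus ends and limit microtubule length. Kif18b (chr11:102905529-102925124, minus strand) was at 4.38, 6.12 and 7.98 TPM in uninduced libraries and at 0.0227, 0.630 and 0.321 TPM in induced libraries. Kif18b lies within an opposite-strand non-coding gene, Gm26668. Kif18b fell by 2.43 (SE 0.42, limma adjusted p 0.00684), with -2.19 after rescaling (adjusted p 0.0193). Its paralogue Kif18a was steady at 3.53, 2.94 and 2.96 TPM in uninduced libraries and scattered in induced libraries, at 0.980, 0.0472 and 2.85 TPM. Kif18a did not pass on either scale (log2 change -1.05, SE 0.51, limma adjusted p 0.216; rescaled -0.82, adjusted p 0.407). Its induced replicate 3 lay just under the lowest uninduced library, and after rescaling the groups overlapped.

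Motors that hold the spindle bipolar were next compared. Kif15 (chr9:122951046-123018733, plus strand), a kinesin-12 that keeps spindle poles apart, was at 13.03, 10.5 and 7.01 TPM in uninduced libraries and at 2.56, 0.381 and 0.785 TPM in induced libraries. Kif15 fell by 2.40 (SE 0.44, limma adjusted p 0.00924), with -2.11 after rescaling (adjusted p 0.0253). Kif11, the kinesin-5 that pushes poles apart from prophase onward, lay below the filter. It was listed at 1.60, 1.02 and 0.803 TPM in uninduced libraries and at 0.288, 0.0477 and 0.0309 TPM in induced libraries, which do not overlap. The uninduced mean of Kif11, 1.14 ± 0.414 TPM, was well under the 10.2 ± 3.02 TPM of Kif15.

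Kifc1 (chr17:33875659-33890661, minus strand), a minus-end-directed kinesin-14 that focuses spindle poles, was at 4.80, 8.11 and 7.97 TPM in uninduced libraries and at 0.297, 1.62 and 1.66 TPM in induced libraries. Kifc1 fell by 1.90 (SE 0.43, limma adjusted p 0.0209), and after rescaling it did not pass (log2 change -1.62, adjusted p 0.0640). The call was lost without uninduced replicate 2 or 3 or induced replicate 1 or 2 (adjusted p 0.0564 to 0.0792). Its paralogue Kifc5b was at 1.57, 1.72 and 1.85 TPM in uninduced and 0.638, 2.69 and 1.09 TPM in induced libraries, with overlapping groups and no call (log2 change -0.22, limma adjusted p 0.791). After rescaling the sign of Kifc5b changed, to 0.026. Their longest GENCODE M21 transcripts share 96.8% of 2312 aligned bases, so reads could be assigned to either gene and both values are uncertain.

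The kinesin-13 depolymerase Kif2c, which corrects faulty chromosome attachments, was at 1.86, 8.81 and 2.50 TPM in uninduced libraries and at 0, 0.453 and 0.454 TPM in induced libraries. The uninduced libraries were uneven, with replicate 2 far above the others, and Kif2c did not pass (log2 change -1.85, SE 0.54, limma adjusted p 0.0547; rescaled -1.63, adjusted p 0.105). Kif14, a cytokinesis motor below the filter, was at 0.604, 1.12 and 3.46 TPM in uninduced and 0, 0.211 and 0.0709 TPM in induced libraries. Kif2b, whose transcripts are known mainly from testis, was listed at 0 in all 6 libraries.

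**Figure D1:**
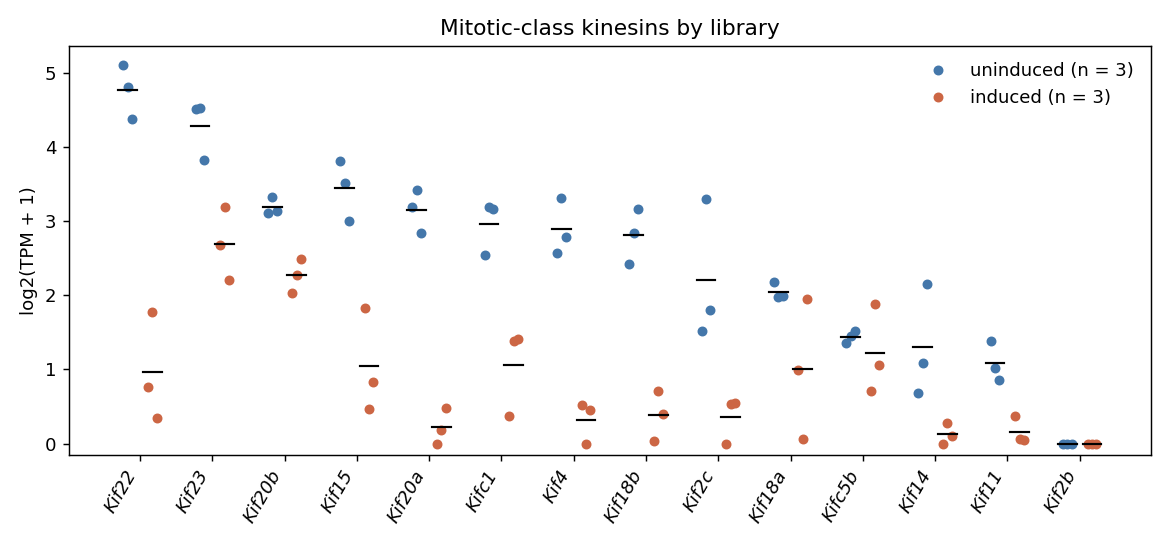
Each point is 1 library, with log2(TPM + 1) on the vertical axis and the 14 mitotic kinesins, ordered by mean TPM, on the horizontal axis; black bars are group means. Kif22 shows the widest separation of means on this axis, with its pseudocount of 1, Kif23 and Kif20b keep the highest induced levels, and the 2 groups overlap in Kifc5b.

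Genes of late cell cycle phases are known to share promoter elements, a CCAAT box and a cell cycle homology region with the letters TTTGAA or TTCGAA. RefSeq promoter windows of 300 bases, 250 before and 50 from the start on GRCm38.p6, were matched by symbol for 33 of the 42 members. They gave 13 mitotic, 13 transport and 11 other windows, from 13, 11 and 9 genes, so some genes, such as Kif1b, had more than 1 window. No window was found for Kif20a, for the transport members Kifc2, Kif5b, Kifc3, Kif21b, Kif13b and Kif5a, or for Kif19a and Kif28. Both strands were searched. The cell cycle letters were in 11 of 13 mitotic windows, or 84.6%, in 1 of 13 transport windows and in 3 of 11 other windows, and in 19.2% of all 32851 windows. CCAAT was in 9 of 13 mitotic windows (69.2%), in 4 of 13 transport windows (30.8%), in 4 of 11 other windows (36.4%) and in 37.4% of all windows. A window held both in 8 of 13 mitotic members, in 0 of 13 transport windows, in 3 of 11 other windows (27.3%) and in 7.52% of all windows.

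The 6 mitotic members called lower that had a window all held the cell cycle letters, as did 3 of the 4 tested and not called. Kif18a and Kif2b were the mitotic members without them, and Kif1a, listed at 0 in every library, was the transport gene with them. In 9 of 13 mitotic windows a match lay between positions -30 and 35, a range chosen after the positions were seen, against 0 of 13 transport windows, 2 of 11 other windows (18.2%) and 3.4% of all windows. E2F letters (TTCGCGC, and as variants TTCCCGC and TTGGCGC) were in 2 of 13 mitotic, 1 of 13 transport and 2 of 11 other windows, and in 8.07% of all windows. Sp1 letters (GGGCGG) were in 6 of 13 mitotic, 10 of 13 transport and 7 of 11 other windows, and in 35.7% of all windows. In the members' windows 1 pair of matches of different motifs shared a base. A match is a description of letters and no measure of binding.

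The stretch from 75 bases before to 25 bases after the RefSeq start is shown for the 6 called mitotic members with a window, since these genes were called lower, and for the transport members Kif13a and Kif16b as a contrast. Capitals mark the CCAAT box, which reads ATTGG where the match is on the opposite strand, and the cell cycle letters, which then read TTCAAA. They lie at chr7:127042396-127042495 (minus strand) for Kif22, chrX:100625990-100626089 (plus strand) for Kif4, chr11:102925100-102925199 (minus strand) for Kif18b and chr9:122951006-122951105 (plus strand) for Kif15. Those of Kifc1, Kif23, Kif13a and Kif16b lie at chr17:33890609-33890708 (minus strand), chr9:61946775-61946874 (minus strand), chr13:46929694-46929793 (minus strand) and chr2:142901440-142901539 (minus strand), respectively.
Kif22: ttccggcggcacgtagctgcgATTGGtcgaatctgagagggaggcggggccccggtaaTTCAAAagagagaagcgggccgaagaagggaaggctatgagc
Kif4: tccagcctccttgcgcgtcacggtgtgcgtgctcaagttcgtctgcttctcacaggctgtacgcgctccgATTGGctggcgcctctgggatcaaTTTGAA
Kif18b: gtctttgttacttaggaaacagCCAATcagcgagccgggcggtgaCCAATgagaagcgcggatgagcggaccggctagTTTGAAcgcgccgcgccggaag
Kif15: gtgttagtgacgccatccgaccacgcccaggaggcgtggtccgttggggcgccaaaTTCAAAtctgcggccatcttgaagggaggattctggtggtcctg
Kifc1: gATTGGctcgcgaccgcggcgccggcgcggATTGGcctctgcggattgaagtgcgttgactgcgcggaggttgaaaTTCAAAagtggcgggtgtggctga
Kif23: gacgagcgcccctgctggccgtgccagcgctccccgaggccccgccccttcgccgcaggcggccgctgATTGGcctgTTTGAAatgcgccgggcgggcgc
Kif13a: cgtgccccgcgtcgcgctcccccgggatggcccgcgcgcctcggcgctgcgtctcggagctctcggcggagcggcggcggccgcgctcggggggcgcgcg
Kif16b: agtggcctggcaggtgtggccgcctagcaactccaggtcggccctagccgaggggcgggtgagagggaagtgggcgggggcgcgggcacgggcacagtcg
The cell cycle letters of Kif22 and Kif15 sit just before the start, at positions -17 to -12 and -19 to -14, and those of Kif18b, Kif23 and Kifc1 just after it, at positions 4 to 9, 3 to 8 and 2 to 7. The stretches of Kif13a and Kif16b hold neither set of letters, but those of some other transport members do. In the same range CCAAT lay at -18 to -14 in Kif3a and at -69 to -65 in Kif3b, and the cell cycle letters at -44 to -39 in Kif1a.

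Of 17 transport members 12 were tested, 1 fell and none rose, where 11.5% of all tested genes were called in either direction. Their median log2 change was -0.48, and -0.24 after rescaling, when 7 members had negative and 5 positive values and none was called, against 5.98% of all tested genes. Groups did not overlap, with induced libraries lower, in 5 of the 12, and in 3 after rescaling, against 28.2% and 14.3% of all tested genes. Limma adjusted p of the 11 not called ranged from 0.127 to 0.760 on the deposited scale. Whether the mitotic and transport classes differ in their change was not tested, since members are not replicates.

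The member that fell was Kif21b (ENSMUSG00000041642; chr1:136131389-136177998, plus strand), a kinesin-4 motor that also slows microtubule growth. Its levels were 13.6, 14.3 and 9.11 TPM in uninduced libraries and 4.9997, 3.76 and 6.11 TPM in induced libraries, which did not overlap. Kif21b fell by 1.16 (SE 0.31, limma adjusted p 0.0408), and after rescaling it was at -0.80 and did not pass (adjusted p 0.124). Leaving out uninduced replicate 1 or 2 or any induced replicate ended the call, at adjusted p of 0.0690 to 0.138, as did the replicate block (adjusted p 0.0845). Its close relative Kif21a was low, at 2.07 ± 1.40 TPM in uninduced and 0.309 ± 0.297 TPM in induced libraries, and did not pass (log2 change -1.16, limma adjusted p 0.166; rescaled -0.98, adjusted p 0.271).

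Kif13a, an endosome motor, had the highest mean of all 42 kinesins, at 16.9, 33.3 and 25.7 TPM in uninduced and 17.5, 13.3 and 13.04 TPM in induced libraries. The groups overlapped through uninduced replicate 1 and induced replicate 1, and the log2 change of -0.72 did not pass (SE 0.28, limma adjusted p 0.133), with -0.33 after rescaling (adjusted p 0.542). Kif5b, the ubiquitous heavy chain of conventional kinesin, was at 14.8, 22.5 and 18.2 TPM in uninduced and 15.8, 12.4 and 15.7 TPM in induced libraries. Its groups overlapped, and the log2 value of -0.31 (SE 0.25, limma adjusted p 0.460) turned to 0.078 after rescaling.

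Kif16b, which moves early endosomes, was at 13.5, 10.3 and 8.61 TPM in uninduced and 12.4, 5.50 and 9.44 TPM in induced libraries. Kif13b was at 10.3, 12.5 and 5.83 TPM in uninduced and 8.65, 7.61 and 7.45 TPM in induced libraries. Both overlapped between groups, and their log2 changes of -0.27 (SE 0.33) and -0.19 (SE 0.32) turned to 0.10 and 0.18 after rescaling. Limma adjusted p on the deposited scale were 0.645 for Kif16b and 0.738 for Kif13b.

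Kif3a and Kif3b form a heterotrimeric motor with the accessory subunit Kifap3. Kif3a was at 9.25 ± 3.14 TPM in uninduced and 5.05 ± 0.820 TPM in induced libraries, and Kif3b at 6.46 ± 0.188 and 5.28 ± 0.496 TPM. Neither passed (limma adjusted p 0.193 and 0.611). The log2 change of Kif3a was -0.72, or -0.36 rescaled, and that of Kif3b was -0.25, or 0.095 rescaled. Kifap3, at 2.26 to 5.58 TPM and 2.74 to 6.26 TPM, overlapped between groups. Kif1c was the only tested transport member above 0 on the deposited scale, at 0.21 (SE 0.39, limma adjusted p 0.760; rescaled 0.57, adjusted p 0.432), and the deposited-scale sign changed without uninduced replicate 1. Kif1b, Kif3c and Kif17 did not pass either (limma adjusted p 0.127, 0.648 and 0.469), with log2 changes of -0.82, -0.43 and -0.54, and rescaled changes of -0.47, -0.16 and -0.35. On its own strand Kif17 overlaps Sh2d5 over 10898 of 51533 bases, so its reads are uncertain.

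Below the filter, Kif5a and Kif5c, known as neuronal heavy chains, were at no more than 0.623 TPM and 0.186 TPM in any library, and Kif1a, another neuronal motor, was listed at 0 throughout. Kifc2 and Kifc3, singled out after their values were seen, were listed at 0 in the 3 uninduced libraries. Kifc2 was at 0.582, 2.05 and 2.89 TPM and Kifc3 at 1.56, 0.247 and 0.419 TPM in the induced libraries. No fold is given against a group listed at 0. Kifc2 overlaps Cyhr1 on the opposite strand over 260 of 8339 bases.

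**Figure D2:**
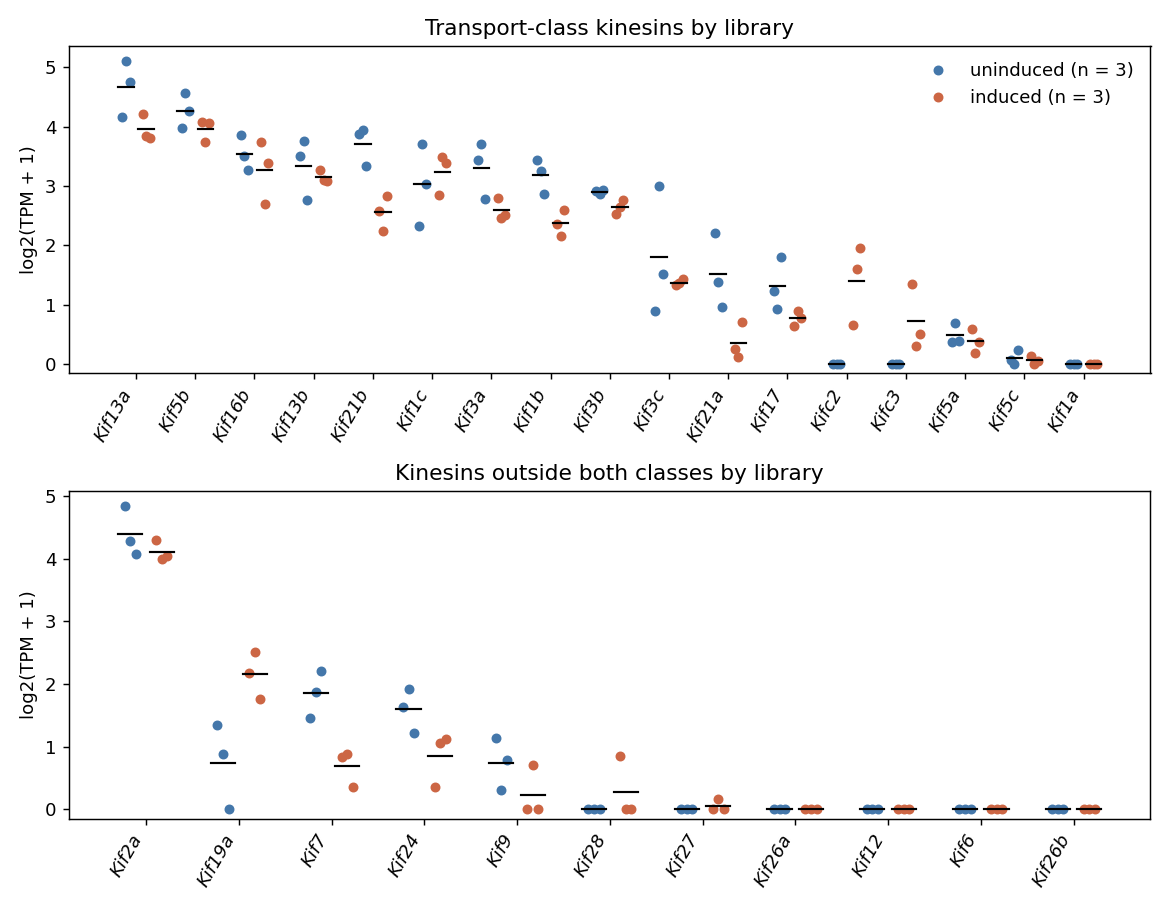
Each point is 1 library, with log2(TPM + 1) on the vertical axis and the 17 transport kinesins (upper panel) and 11 other kinesins (lower panel) by mean TPM on the horizontal axis; black bars are group means. The groups overlap in Kif13a, Kif5b, Kif16b and Kif13b. Of the tested genes, all induced libraries are lower in Kif21b, Kif1b, Kif3b, Kif21a, Kif17, Kif7 and Kif24, and higher in Kif19a.

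Of the 11 kinesins outside both classes 4 were tested and 0 were called, where 11.5% of all tested genes were called, so a count of 0 says little of so few genes. Kif2a, a depolymerase of spindle poles and of neurites, was at 27.6, 18.5 and 15.8 TPM in uninduced and 18.6, 14.99 and 15.6 TPM in induced libraries. The groups overlapped, and its log2 change of -0.29 (SE 0.26, limma adjusted p 0.514) turned to 0.10 after rescaling. Kif19a, which shortens cilia by taking apart microtubule ends, was at 1.54, 0.840 and 0 TPM in uninduced and 3.51, 4.73 and 2.40 TPM in induced libraries. Kif19a is given by library because its values, once seen, were higher in all induced libraries, but it did not pass (log2 change 1.41, SE 0.48, limma adjusted p 0.0864; rescaled 1.66, adjusted p 0.0720). After rescaling to nuclear protein-coding genes it did, at 1.69 with an adjusted p of 0.0410.

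Kif7, a ciliary regulator of Hedgehog signalling, was at 2.69 ± 0.948 TPM in uninduced and 0.633 ± 0.309 TPM in induced libraries. The groups did not overlap, and it did not pass (log2 change -1.16, SE 0.44, limma adjusted p 0.116; rescaled -0.93, adjusted p 0.246). Kif24, a centriole-bound kinesin-13 that restrains cilium formation, was at 2.08 ± 0.726 TPM and 0.847 ± 0.496 TPM, and did not pass (log2 change -0.75, limma adjusted p 0.316; rescaled -0.52, adjusted p 0.538). Kif6, Kif12, Kif26a and Kif26b were listed at 0 in all 6 libraries, and Kif9, Kif27 and Kif28 reached at most 1.202 TPM in any library.

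**Figure D3:**
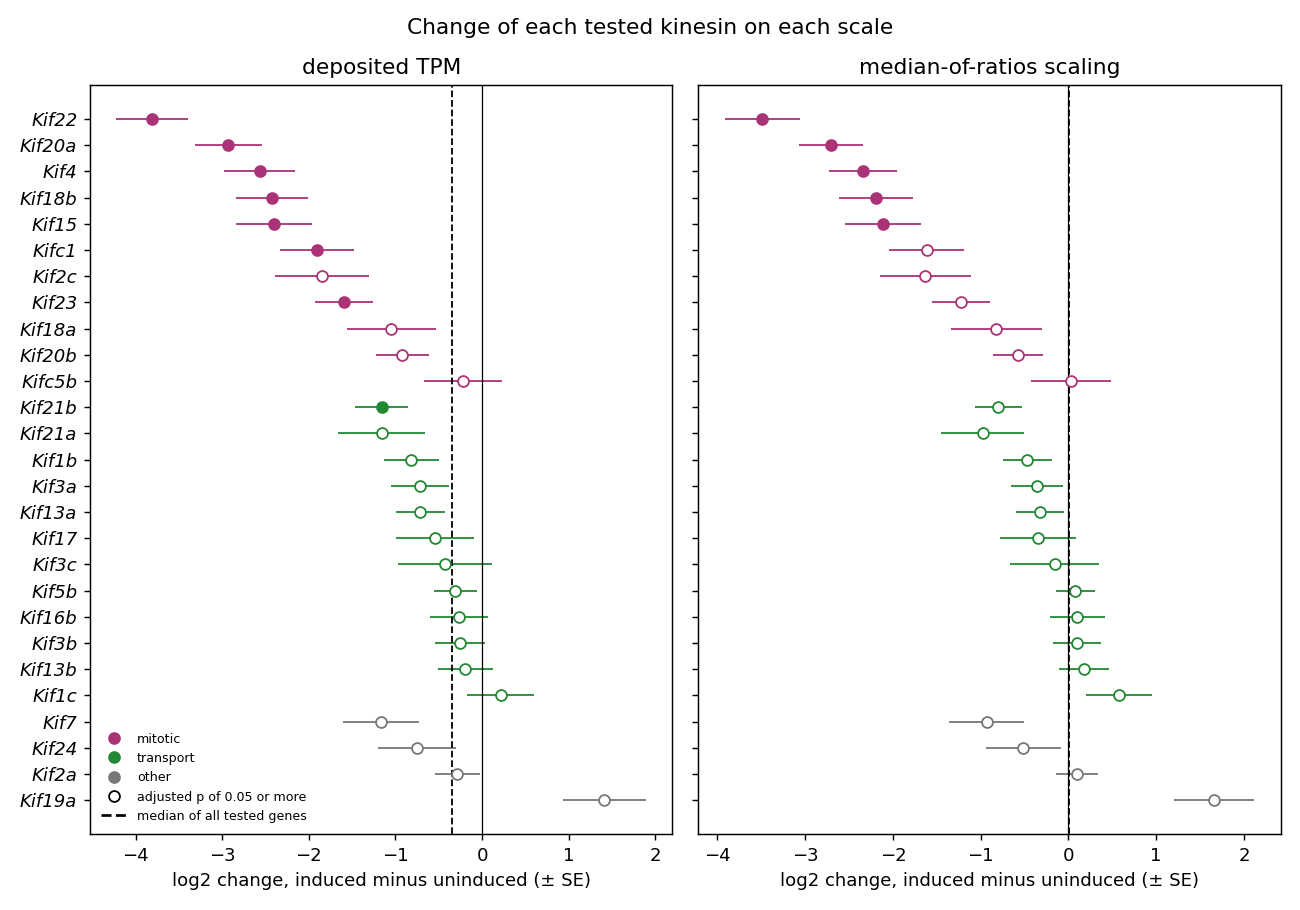
Points are log2 changes of the 27 tested kinesins with SE bars, on deposited TPM (left) and after median-of-ratios scaling (right); filled points have an adjusted p under 0.05, and dashed lines are the median of all tested genes. On the left 7 mitotic kinesins and Kif21b are filled, on the right 5 mitotic kinesins.

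Because a scaling factor moves all genes of a library together, the classes were also compared within each library. The summed TPM of the mitotic class was 107, 117 and 87.3 in the uninduced libraries and 14.4, 20.6 and 16.5 in the induced libraries, a mean 6.05-fold lower. That of the transport class was 106, 142 and 99.3 in uninduced and 85.5, 70.9 and 83.5 in induced libraries, a mean 1.45-fold lower. Rescaled transport sums overlapped between the groups, with a mean 1.08-fold lower, and rescaled mitotic sums did not, with a mean 4.498-fold lower. The ratio of mitotic to transport sums within a library is the same under any scaling by 1 factor per library. It was 1.02, 0.824 and 0.880 in uninduced and 0.168, 0.290 and 0.198 in induced libraries, so near-equal sums gave way to sums with the transport class well ahead. Mitotic kinesins made up 42.2% ± 1.14 of all kinesin TPM in uninduced and 14.5% ± 3.27 in induced libraries. Kif2a, a depolymerase of spindle poles and of neurites, was placed among the others and is not in the mitotic sums. Its means were 20.7 ± 6.18 TPM in uninduced and 16.4 ± 1.97 TPM in induced libraries. Counting Kif2a as mitotic would make the mitotic fold and the shifts in ratio and share smaller. These sums are given with no test.

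**Figure D4:**
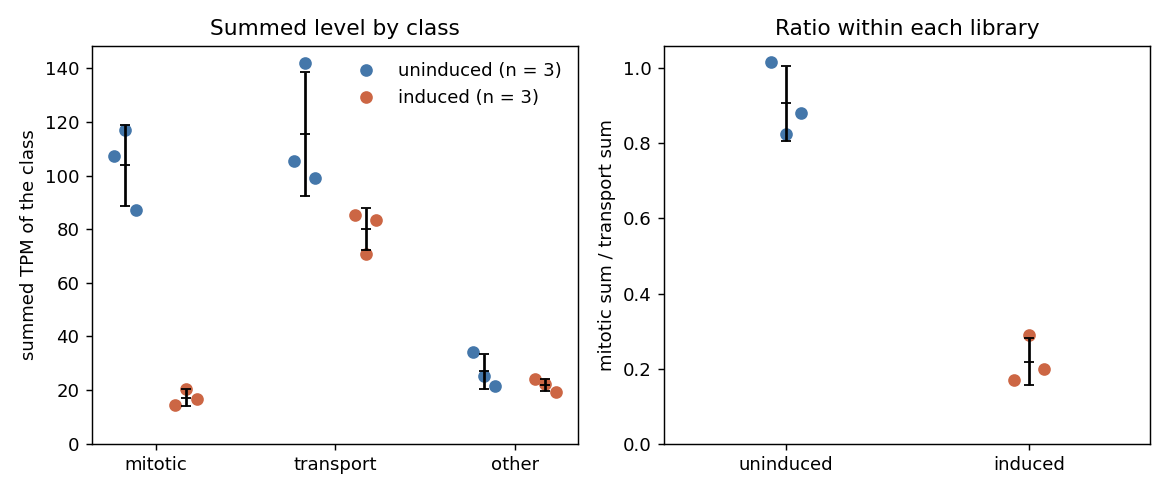
Left, summed TPM of the mitotic, transport and other kinesins in each library; right, the mitotic sum divided by the transport sum in each library, with group means and SD bars. The ratio lies between 0.824 and 1.02 in uninduced and between 0.168 and 0.290 in induced libraries.

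Genes that work with kinesins were taken from lists written with earlier results of these data known. Cenpe, a kinesin-7 of the kinetochore outside the naming rule, was at 9.53, 5.76 and 6.32 TPM in uninduced and 0.816, 0.810 and 1.34 TPM in induced libraries. Cenpe fell by 2.03 (SE 0.37, limma adjusted p 0.00922), with -1.74 after rescaling (adjusted p 0.0244). Stard9, another kinesin outside the rule, was below the filter, at 0.0888 to 0.714 TPM.

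Of 20 partners of mitotic kinesins, all tested, 14 fell and 0 rose, with a median log2 change of -2.01, where 10.2% of all tested genes were called lower and 1.29% higher. After rescaling 10 were called lower, against 3.1% of all tested genes, and the median was -1.73. Racgap1, which pairs with Kif23 in centralspindlin, was at 11.5, 13.4 and 25.3 TPM in uninduced and 2.69, 3.17 and 3.23 TPM in induced libraries (log2 change -2.06, limma adjusted p 0.00619; rescaled -1.71). Prc1, the microtubule bundler that recruits Kif4, was at 19.4, 29.9 and 24.7 TPM in uninduced and 4.52, 2.66 and 7.62 TPM in induced libraries (log2 change -2.18, limma adjusted p 0.00537; rescaled -1.82). The largest changes of this list were in Birc5, of the chromosomal passenger complex, at -3.00, and Bub1b, a spindle checkpoint kinase, at -2.82 (limma adjusted p 0.00400 and 0.00325), with rescaled changes of -2.67 and -2.49.

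Beside these, all 11 cycling cell markers fell, with a median log2 change of -2.09, and 9 were called lower after rescaling, against 10.2% and 3.1% of all tested genes. Mki67 was at 48.0 to 53.2 TPM in uninduced and 6.11 to 7.79 TPM in induced libraries, Top2a fell by 2.78 (rescaled -2.40) and Mcm5 by 2.71 (rescaled -2.33). The summed cycling markers were 489 to 591 TPM and 106 to 146 TPM, and their part in the kinesin result was not tested.

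Among the tubulins, which form the microtubule track, 12 of 15 were tested, 7 fell and 1 rose, with a median of -1.19, against 10.2% and 1.29% of all tested genes. After rescaling 3 were lower and 1 higher, against 3.1% and 2.88%. Tuba1b fell, with 103 to 139 TPM in uninduced and 27.9 to 37.0 TPM in induced libraries (log2 change -1.88, limma adjusted p 0.000835; rescaled -1.48). Tubb6 was at 4.44, 0 and 3.77 TPM in uninduced and 13.9, 10.6 and 12.8 TPM in induced libraries, and rose by 2.17 (SE 0.58, limma adjusted p 0.0411), with 2.43 after rescaling (adjusted p 0.0402).

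Of 28 genes of the minus-end motor dynein and its cofactor dynactin 25 were tested, 1 fell and 0 rose, against 10.2% and 1.29% of all tested genes, and the median log2 change of -0.34 was close to the -0.35 of all tested genes. Actr1b, a dynactin subunit, fell by 0.81 (SE 0.20, limma adjusted p 0.0305), and did not pass after rescaling (-0.42, adjusted p 0.218). Pafah1b1, a dynein regulator, had a log2 change of -0.85 and did not pass (limma adjusted p 0.145; rescaled -0.47). Of 16 tested kinesin light chains and cargo adaptors, 1 fell and 0 rose, against the same 10.2% and 1.29%, with a median of -0.10 and, after rescaling, 0.23. Klc1, a light chain that binds Kif5b, fell from 35.2, 32.4 and 33.8 TPM to 13.7, 16.3 and 14.9 TPM (SE 0.20 on a log2 change of -1.13, limma adjusted p 0.00869). Rescaled, Klc1 did not pass (-0.74, adjusted p 0.0649), and Trak1, the mitochondrial adaptor, had a log2 change of -0.31 (rescaled 0.079) with overlapping groups.

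**Figure D5:**
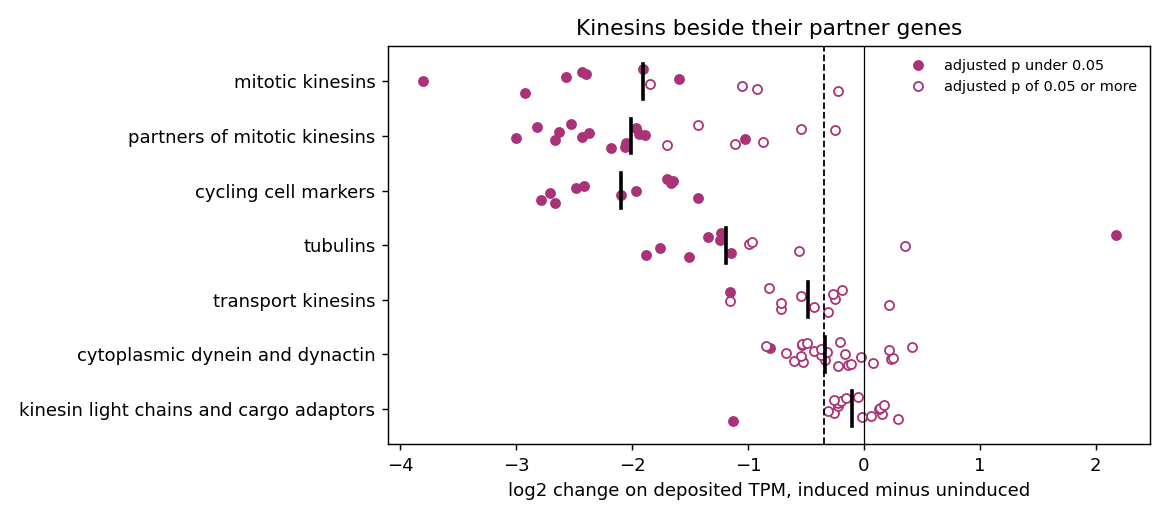
Points are log2 changes on deposited TPM of tested genes, by list; filled points have an adjusted p under 0.05, thick bars are list medians, and the dashed line is the median of all tested genes, -0.35. Mitotic kinesins, their partners and cycling markers have medians of -1.90, -2.01 and -2.09, and transport kinesins, dynein genes and cargo adaptors have medians of -0.48, -0.34 and -0.10, with Kif21b and Klc1 among the single genes well below the line.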

How the data were processed

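Total RNA of sorted stem cells was prepared with a single-cell kit and a stranded pico-input kit and sequenced as pairs on a NovaSeq, per the labels' protocols. The authors deposited TPM per gene in 1 table. StringTie, HISAT2 and the build GRCm38 are named, with no versions, per the submitters' processing notes. A GC percent per gene, per the file headers, gave a median of 45.7% in mitotic and 46.1% in transport kinesins.

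Rows (60496) were summed per gene ID. log2(TPM + 1) was fitted with limma 3.58.1 in R 4.3.3 (group only, variance trend, two-sided, Benjamini-Hochberg over the 13470 genes averaging 1 TPM or more) and the code tested on simulated data. Members, classes, lists and alternatives were chosen with earlier results of these data known. Every tested kinesin is named. Library values are given for tested mitotic members, called members and the 6 with the highest mean outside the mitotic class (Kif21b is also called). They are also given for Kif11, Kif14, Kif19a, Kifc2 and Kifc3, added after their values were seen. From the partner lists, the genes named were those chosen in advance and the 2 largest changes, some by log2 change only. Positions and overlaps come from GENCODE M21, promoters from RefSeq, transcript identity from BLAST 2.17.0. No protein sequences were used here. Same-numbered libraries did not vary together (correlations of deviations -0.015 to 0.021).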

Additional observations from a re-analysis of the deposited data

How the results depend on the processing

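The 7 mitotic kinesins called lower became 4 with no filter and 3 of 4 tested at a mean of 5 TPM, and were 5 to 6 with any 1 library left out. The 1 transport call became 0 with no filter, median-of-ratios, quantile or nuclear protein-coding scaling, no variance trend, and the replicate block with or without median-of-ratios scaling, and was 0 to 1 with 1 library left out. Among the other kinesins, called genes went from 0 to 1 (Kif19a) under nuclear protein-coding scaling. No label says that same-numbered libraries are related. The mitotic count was 7 with the block, 5 under median-of-ratios scaling with or without it, 5 under quantile and 6 under nuclear protein-coding scaling. With the block the 1549 calls over all genes became 902, or 451 with median-of-ratios scaling. Those calls were 752 with no filter, 806, 814 and 944 under median-of-ratios, quantile and nuclear protein-coding scaling, 767 with no variance trend and 573 to 1198 with 1 library left out.

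The mitotic sum had a log2 ratio of -2.60 (-2.75 to -2.49 with 1 library left out), and -2.27 without Kif22. The transport sum had -0.53 (-0.63 to -0.36) and their ratio -2.05 (-2.31 to -1.89). Near-zero log2 changes turned positive under median-of-ratios (with or without the replicate block), quantile and nuclear protein-coding scaling, in that order, for Kif5b (0.078, 0.071 and 0.11), Kif2a (0.10, 0.097 and 0.13), Kifc5b (0.026, 0.033 and 0.042), Kif3b (0.095, 0.089 and 0.12), Kif16b (0.10, 0.084 and 0.13) and Kif13b (0.18, 0.16 and 0.20). With 1 library left out, signs changed within -0.88 to 0.17 for Kif3c, -0.13 to 0.56 for Kif1c, -0.55 to 0.034 for Kifc5b, -0.50 to 0.023 for Kif16b and -0.48 to 0.015 for Kif13b. More genes were tested with no filter and fewer at 5 TPM, and the cause of the differences between settings was not tested. Precision is limited by 3 libraries a group and unknown depth.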
